A study of Saccharomyces cerevisiae with 79 samples.

Results

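Splicing of newly made RNA was compared between prp2-1 and WT budding yeast (Saccharomyces cerevisiae) at the late end of labelling with 4-thiouracil, a uracil analogue that marks transcripts made after it is added. The comparison holds 18 libraries of the 79 in the series: 9 of prp2-1 and 9 of WT, chosen by strain and by a nominal labelling time of 540, 720 or 990 s. Each strain had 3 time courses, and the reads of the 3 late libraries of a course were summed, so that n is 3 courses against 3. The prp2-1 cells carry the prp2-1 allele, and the WT cells are BY4741, a laboratory strain of mating type a. Both were grown in the synthetic medium CSM and received 4-thiouracil, and nothing else distinguishes the groups in the labels. The strain background and mating type of prp2-1 and the growth temperature are not given in the sources used here, so the allele and any other difference between the strains cannot be told apart. The labels do not say that the courses came from separate cultures, so the p-values reflect only how these courses varied, which may be technical.

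Prp2 is a DEAH-box ATPase that uses ATP to make the spliceosome ready for the first splicing reaction, in which the 5′ splice site is cut and joined to the branch point adenosine. That step leaves a free 5′ exon and a lariat intermediate, the intron as a branched loop still joined to the 3′ exon, and the second step joins the exons. The prp2-1 allele is known as a heat-sensitive one. Multiplexed primer extension sequencing reads cDNA primed just downstream of each intron: a spliced RNA gives a read that crosses the exon junction, an unspliced RNA gives intron sequence, and a lariat intermediate gives a cDNA that stops at the branch point. The deposited unspliced count contains the lariat intermediate count, and the total count contains the unspliced count.

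In the prp2-1 tables the column numbered 12 is absent, as is the library of replicate 2 at 120 s, so columns 13 to 30 were taken as the libraries numbered 12 to 29 in the titles. Under this reading, the reads of the 308 yeast targets per Schizosaccharomyces pombe spike-in read were lowest at 0 s in every course, at 1.92, 0.933 and 1.12 in prp2-1 courses 1, 2 and 3. The highest value from 150 to 300 s was 26.01, 38.0 and 38.8 in those courses, and the lowest value at the late times was 93.4, 117 and 87.1. Steps between successive times went up in 9 of 9, 7 of 8 and 8 of 9 cases in the prp2-1 courses and in 9 of 9, 8 of 9 and 7 of 9 cases in the WT courses. In WT course 3 the lowest late value, 1559, lay below its highest early one, 1834. The factor by which the authors scaled their normalised counts was the same in all columns of a nominal time under this reading, at 43.67 for 540 s, 61.69 for 720 s and 86.24 for 990 s. The results of prp2-1 courses 2 and 3 rest on this reading of the columns.

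Late libraries held 1853963 to 8616607 reads in prp2-1 and 1519931 to 8130197 reads in WT, with 10236 to 35532 spike-in reads in prp2-1 and 995 to 2645 in WT. The WT library of course 1 at 540 s stood apart in the intron reads of RPL18B and SAE3. RPL18B supplied 3.57%, 0.765% and 0.628% of all unspliced reads in prp2-1 courses 1, 2 and 3, against 17.1%, 1.09% and 1.01% in WT. Counts of calls are given with and without that library.

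A larger share of all late reads was unspliced in prp2-1 than in WT. Unspliced reads made up 6.83%, 5.71% and 5.70% of the reads of prp2-1 courses 1, 2 and 3, against 2.60%, 2.69% and 3.47% in WT. The courses did not overlap, with means of 6.08% ± 0.648 in prp2-1 and 2.92% ± 0.477 in WT (SD, n = 3 courses each, exact two-sided permutation p = 0.1, the smallest that 3 against 3 can give). When every target was given the same weight in all courses, the shares were 4.48%, 4.09% and 4.70% in prp2-1 and 4.09%, 4.54% and 4.90% in WT, which overlapped (4.42% ± 0.308 in prp2-1 and 4.51% ± 0.406 in WT, SD, n = 3, exact permutation p = 0.8). The median intron had 3.63%, 2.98% and 3.93% unspliced reads in the prp2-1 courses and 3.50%, 4.15% and 4.54% in the WT courses, with means of 3.51% ± 0.484 in prp2-1 and 4.06% ± 0.527 in WT (SD, n = 3, exact permutation p = 0.3).

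The mix of transcripts behind the pooled share differed between the strains. Ribosomal protein targets, 104 of the 308, took 57.0%, 56.7% and 64.4% of all reads in prp2-1, against 84.6%, 84.6% and 83.6% in WT (59.4% ± 4.37 in prp2-1 and 84.3% ± 0.565 in WT, SD, n = 3, exact permutation p = 0.1). Pooled within the ribosomal protein targets, 1.06% ± 0.292 of reads were unspliced in prp2-1 and 1.28% ± 0.204 in WT (exact permutation p = 0.4, n = 3). Pooled within all other targets, 13.5% ± 1.14 were unspliced in prp2-1 and 11.6% ± 2.02 in WT (exact permutation p = 0.2, n = 3). The distance between the classes, as the median log2 ratio of unspliced to spliced reads of ribosomal protein introns minus that of other introns, was −3.64 ± 0.107 in prp2-1 and −3.50 ± 0.251 in WT (SD, n = 3, exact permutation p = 0.6).

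**Figure D1:**
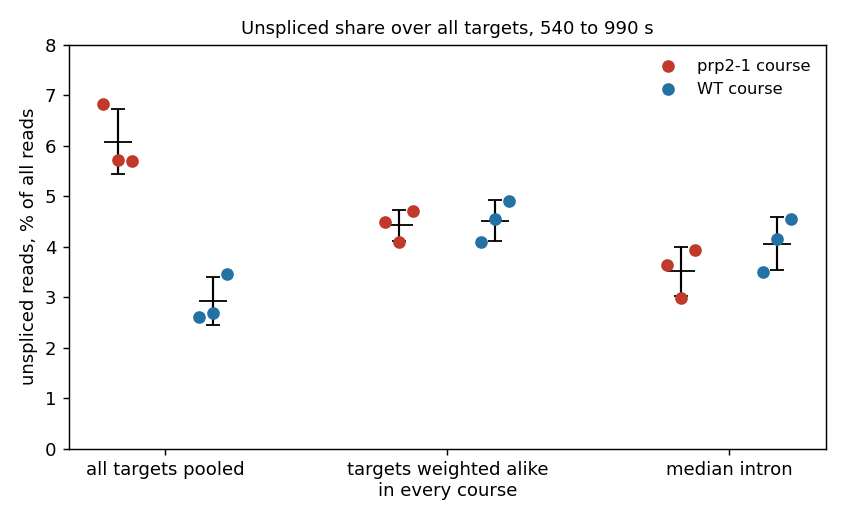
Unspliced reads as a percentage of reads in each late time course (points, 3 prp2-1 and 3 WT courses; horizontal lines are means and whiskers 1 SD) for all reads pooled, for targets weighted alike and for the median intron. The pooled shares of 5.70% to 6.83% in prp2-1 lie above the 2.60% to 3.47% in WT, while the other measures overlap.

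A few transcripts carried much of the unspliced pool. CMC4, which encodes a protein of the mitochondrial intermembrane space, gave 11.2% ± 2.11 of all unspliced reads in prp2-1 and 1.32% ± 0.303 in WT. MCR1, a mitochondrial NADH-cytochrome b5 reductase, gave 7.78% ± 2.68 in prp2-1 and 1.197% ± 0.0422 in WT. HAC1, the transcription factor of the unfolded protein response, gave 5.49% ± 3.12 in prp2-1 and 1.38% ± 0.765 in WT, and the aminopeptidase APE2 gave 4.46% ± 0.62 in prp2-1 and 2.09% ± 0.395 in WT. Courses of the strains did not overlap for any of these (SD, n = 3, exact permutation p = 0.1 each). MTR2, an mRNA export factor, gave 18.9% ± 2.59 in prp2-1 and 18.3% ± 1.62 in WT, which overlapped (exact permutation p = 0.8). Without MCR1, unspliced reads were still 5.64% ± 0.578 of all reads in prp2-1 and 2.89% ± 0.471 in WT (n = 3, exact permutation p = 0.1).

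Intron by intron, most targets showed no call in the share of unspliced reads. The test was edgeR's quasi-likelihood interaction of strain and read state. A change is given as log2 of the unspliced to spliced ratio in prp2-1 over that in WT, with a standard error (SE). Here and below, the SE was derived as the absolute change divided by the square root of the test's F statistic. The adjusted p is Benjamini-Hochberg over the 279 introns with enough reads. At an adjusted p under 0.05, 14 introns (5.02%) had a lower unspliced ratio in prp2-1 and 6 (2.15%) a higher one. Courses of the strains did not overlap, with prp2-1 lower, for 52 introns (18.6%), and with prp2-1 higher for 19 (6.81%). The median change over all 279 was −0.20. Leaving out 1 course moved the counts: prp2-1 course 1 left out gave 10 lower and 5 higher, prp2-1 course 2 gave 6 and 4, and prp2-1 course 3 gave 28 and 8. Leaving out WT course 1, 2 or 3 gave 22, 9 and 9 lower, with 5, 5 and 4 higher. Of the 20 calls, 9 passed in all of these 6 fits. Without the WT library of course 1 at 540 s there were 10 lower and 6 higher calls, and 14 of the 20 remained.

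Among the lists of functionally related genes, the meiotic one had most lower calls. Of the 14 meiotic targets, 7 had enough reads, and 5 of them had a lower unspliced ratio in prp2-1 (median change −1.97, against −0.20 over all introns tested). These 5 were SAE3 and MND1, which act in meiotic recombination, REC114, needed for the double-strand breaks that start it, AMA1, a meiotic activator of the anaphase-promoting complex, and PCH2, an ATPase of the meiotic checkpoint. REC107 and HOP2 target 2 did not pass, with changes of −0.85 (edgeR adjusted p = 0.0978) and 0.05 (adjusted p = 0.957). The 5 introns are printed whole because they account for 5 of the 14 lower calls, from the RefSeq annotation of build R64, 5′ to 3′ on the coding strand. Capitals mark the 6 bases of the 5′ splice site, the last of the best matches to the branch sequence TACTAAC and the 3 bases at the 3′ end.
SAE3, chrVIII:262355-262440, minus strand: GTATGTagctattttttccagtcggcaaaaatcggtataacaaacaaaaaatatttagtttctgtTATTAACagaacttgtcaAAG
REC114, chrXIII:537449-537564, plus strand: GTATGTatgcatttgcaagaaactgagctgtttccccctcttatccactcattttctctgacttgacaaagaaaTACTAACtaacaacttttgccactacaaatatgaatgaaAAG
MND1, chrVII:157200-157282, minus strand: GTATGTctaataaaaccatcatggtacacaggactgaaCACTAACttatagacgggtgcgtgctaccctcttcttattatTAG
AMA1, chrVII:946328-946420, plus strand: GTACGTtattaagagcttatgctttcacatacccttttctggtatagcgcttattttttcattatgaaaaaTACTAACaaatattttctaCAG
PCH2, chrII:602104-602216, plus strand: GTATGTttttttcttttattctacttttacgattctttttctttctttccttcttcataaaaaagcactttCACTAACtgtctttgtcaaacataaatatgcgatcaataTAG

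These introns are 83 to 116 nt long. Read on the sense strand, SAE3, MND1 and PCH2 have a branch sequence other than TACTAAC, the form found in 214 of the 258 targets with a single annotated intron (82.9%); CACTAAC was found in 8 of these and TATTAAC in 4. AMA1 begins with GTACGT, as 26 of the 258 do, while 186 begin with GTATGT. SAE3 and REC114 end in AAG, as 13 of the 258 do. Over the introns tested, those with an exact TACTAAC (194) had a median change of −0.18 with 6 lower and 4 higher calls, and those without (39) had a median of −0.21 with 3 lower and none higher. Those 3 are again SAE3, MND1 and PCH2, so this count is not separate from the description above. Intron length was not ordered with the change (Spearman's rho −0.03 over 233 introns, which share libraries and are not independent).

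REC114 had 11.1%, 6.34% and 9.78% unspliced reads in prp2-1 courses 1, 2 and 3, against 52.8%, 22% and 23.4% in WT. All WT courses lay above all prp2-1 courses (change −2.43, SE 0.47, edgeR adjusted p = 0.0033), and the call held in all 6 fits with a course left out. Without the WT library of course 1 at 540 s the change was −1.65 (adjusted p = 0.0173). MND1 had 9.55%, 8.21% and 22.98% in prp2-1, against 34.1%, 35.6% and 52.4% in WT (change −2.35, SE 0.42, adjusted p = 0.00203). PCH2 had 32.2%, 27.5% and 23.1% in prp2-1, against 53.6%, 68.5% and 55.7% in WT (change −1.95, SE 0.34, adjusted p = 0.002). Neither gene's strains overlapped, and both calls held in all 6 fits. AMA1, whose intron is known to need the meiotic splicing factor Mer1, had 27.3%, 35.7% and 32.5% in prp2-1, against 58.8%, 72.4% and 64.4% in WT (change −1.97, SE 0.39, adjusted p = 0.0033). Its call was lost without prp2-1 course 2.

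The reads behind these shares were few. Unspliced reads of REC114 numbered 79, 89 and 31 in prp2-1, against 38, 11 and 11 in WT, and those of AMA1 numbered 47, 109 and 37 in prp2-1, against 20, 21 and 29 in WT. SAE3 had 80.9%, 56.8% and 75.0% unspliced in prp2-1, against 98.4%, 89.1% and 100% in WT (change −4.01, SE 0.65, adjusted p = 0.00146). Its unspliced reads numbered 127, 25 and 21 in prp2-1 and 1425, 41 and 30 in WT, and 1400 of the 1425 came from the WT library that stood apart. Without that library SAE3 fell below the minimum of reads, and 4 of the 6 meiotic introns then tested were lower in prp2-1. Of 8 meiotic targets tested by total reads after TMM scaling, 6 were higher and 1 lower in prp2-1 (median log2 change 2.36, against 0.19 over all 282 targets tested, of which 111 were higher and 95 lower), but with spike-in reads as the library size none was higher and 7 were lower (median −1.67). The 111 higher targets were all among the 178 that are not ribosomal protein targets. The minimum of 100 total reads, also used for the unspliced ratio, was a mean over the courses of both strains. REC114 and AMA1 met it only through prp2-1, where their reads were more numerous. Targets with few WT reads could enter only when high in prp2-1, so the list count and median carry this selection. For REC114 the total averaged 61.0 ± 23.5 CPM (reads scaled to a common library total) in prp2-1 and 4.13 ± 1.12 in WT (SD, n = 3, change 3.88, SE 0.40, edgeR adjusted p = 7.5e-05). HOP2 target 2 was lower (change −1.41), and SAE3 did not pass (change −2.45, adjusted p = 0.123).

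Other introns with a lower unspliced ratio in prp2-1 came from varied genes. The intron of SNR17B, a gene for the U3 small nucleolar RNA of ribosomal RNA processing, had 1.38%, 1.57% and 4.10% unspliced in prp2-1, against 7.25%, 11.3% and 8.004% in WT (change −2.17, SE 0.39, edgeR adjusted p = 0.00203). Its near-identical copy SNR17A had 4.98% ± 1.51 in prp2-1 and 5.87% ± 1.56 in WT, which overlapped (change −0.26, adjusted p = 0.693). How reads common to both copies were assigned is not given in the sources used here, so both values are uncertain. MRPL44, a mitochondrial ribosomal protein, had 1.52%, 1.10% and 1.35% in prp2-1, against 3.21%, 3.50% and 3.39% in WT (change −1.39, SE 0.27, adjusted p = 0.0033), and it held in all 6 fits, as did SNR17B.

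The remaining lower calls were smaller. MRK1, a protein kinase of the GSK-3 family, had 7.58%, 5.32% and 7.63% in prp2-1, against 13.04%, 23.4% and 12.1% in WT (change −1.41, edgeR adjusted p = 0.0461), with 6, 15 and 13 unspliced reads in WT. MRK1 met the minimums of 20 unspliced and 100 total reads, means over both strains, only through prp2-1, where its reads were more numerous. USV1, a zinc finger transcription factor, had 2.38%, 2.20% and 3.42% in prp2-1, against 5.17%, 6.17% and 5.20% in WT (change −1.12, adjusted p = 0.0346). PCC1, a subunit of the KEOPS complex of tRNA modification, had 6.99%, 4.68% and 8.99% in prp2-1, against 12.4%, 11.8% and 13.7% in WT (change −1.03, adjusted p = 0.0353). SUN4, a cell wall protein, had 2.56%, 2.33% and 3.33% in prp2-1, against 4.32%, 6.59% and 4.34% in WT (change −0.92, adjusted p = 0.0494). In each of these all WT courses lay above all prp2-1 courses. MRK1, USV1, PCC1 and SUN4 lost the call without prp2-1 course 1, prp2-1 course 2 or WT course 2, and USV1 and PCC1 also without WT course 3.

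Among 104 ribosomal protein introns, 2 were lower and 1 higher in prp2-1 (median change −0.29), and among the 175 others, 12 were lower and 5 higher (median −0.16). RPL7B target 1 had 2.63%, 1.68% and 2.01% unspliced in prp2-1, against 3.87%, 4.88% and 6.20% in WT (change −1.28, SE 0.30, edgeR adjusted p = 0.0114). RPL2B had 2.33%, 1.82% and 1.99% in prp2-1, against 3.17%, 4.15% and 5.95% in WT (change −1.11, adjusted p = 0.0405). Both have a close paralog, so their counts are uncertain. Both lost the call without prp2-1 course 2, WT course 2 or WT course 3, and RPL2B also without prp2-1 course 1. With DESeq2, or with TMM factors within each read state, 9 ribosomal protein introns were lower and 1 higher. Without the WT library that stood apart, RPL7B target 1, RPL2B, USV1 and SUN4 had adjusted p-values of 0.0515, 0.0977, 0.0516 and 0.0529, and ECM33 one of 0.11.

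SUS1, a subunit of the SAGA and TREX-2 complexes, has a pair of introns, and its targets differed. Target 2 had 32.5%, 34.4% and 51.3% unspliced in prp2-1, against 51.1%, 55.8% and 67.1% in WT (change −1.13, edgeR adjusted p = 0.0494), with overlapping courses, and lost the call without prp2-1 course 1 or 2 or WT course 2 or 3. Target 1 had 41.7% ± 2.67 in prp2-1 and 32.9% ± 4.56 in WT (SD, n = 3, change 0.55, adjusted p = 0.195). The labels do not say which intron each target number is.

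Of the 6 higher calls, the largest after HMRA1 target 1 was DBP2, a DEAD-box RNA helicase whose intron is known for autoregulation. DBP2 had 61.6%, 67.8% and 41.3% unspliced reads in prp2-1 courses 1, 2 and 3, against 12.02%, 16.01% and 11.8% in WT (change 3.15, SE 0.34, edgeR adjusted p = 2.08e-05). No courses of the strains overlapped, and at 540, 720 and 990 s alone the change was 3.25, 3.56 and 2.99. MCR1 had 77.5%, 80.5% and 73.0% in prp2-1, against 50.1%, 50.6% and 51.4% in WT (change 1.71, SE 0.28, adjusted p = 0.00146), and 1.79, 1.61 and 1.69 at those times. RPL16B, a protein of the large ribosomal subunit, had 2.94%, 4.41% and 1.66% in prp2-1, against 0.381%, 1.23% and 0.690% in WT (change 2.05, SE 0.43, adjusted p = 0.00515). These 3 calls held in all 6 fits with a course left out. RefSeq annotates no intron for MCR1 in R64, so its read classes follow the authors' own definition of the target. SNR17B, USV1 and SUN4 were also outside the 258 targets matched to a single annotated intron. So were RPL32 and RPS29A, called in the lariat ratio below.

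ECM33, a cell wall protein, had 24.3%, 34.5% and 28.9% unspliced in prp2-1, against 15.4%, 20.5% and 14.8% in WT (change 1.02, edgeR adjusted p = 0.0281), and lost the call without prp2-1 course 2, WT course 1 or WT course 3. HNT1, an adenosine monophosphoramidase, had 2.68%, 2.34% and 3.28% in prp2-1, against 1.38%, 1.51% and 1.59% in WT (change 0.89, adjusted p = 0.0494), and did not pass in any fit with a course left out. HMRA1 target 1 had the highest change, 5.47 (SE 1.07, adjusted p = 0.0033), but on 2, 1 and 1 unspliced reads of 4, 3 and 1 in prp2-1, against 193, 331 and 223 unspliced reads of 9145, 16011 and 8845 in WT. HMRA1 is near-identical to the mating type a1 gene, so this target is uncertain.

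**Figure D2:**
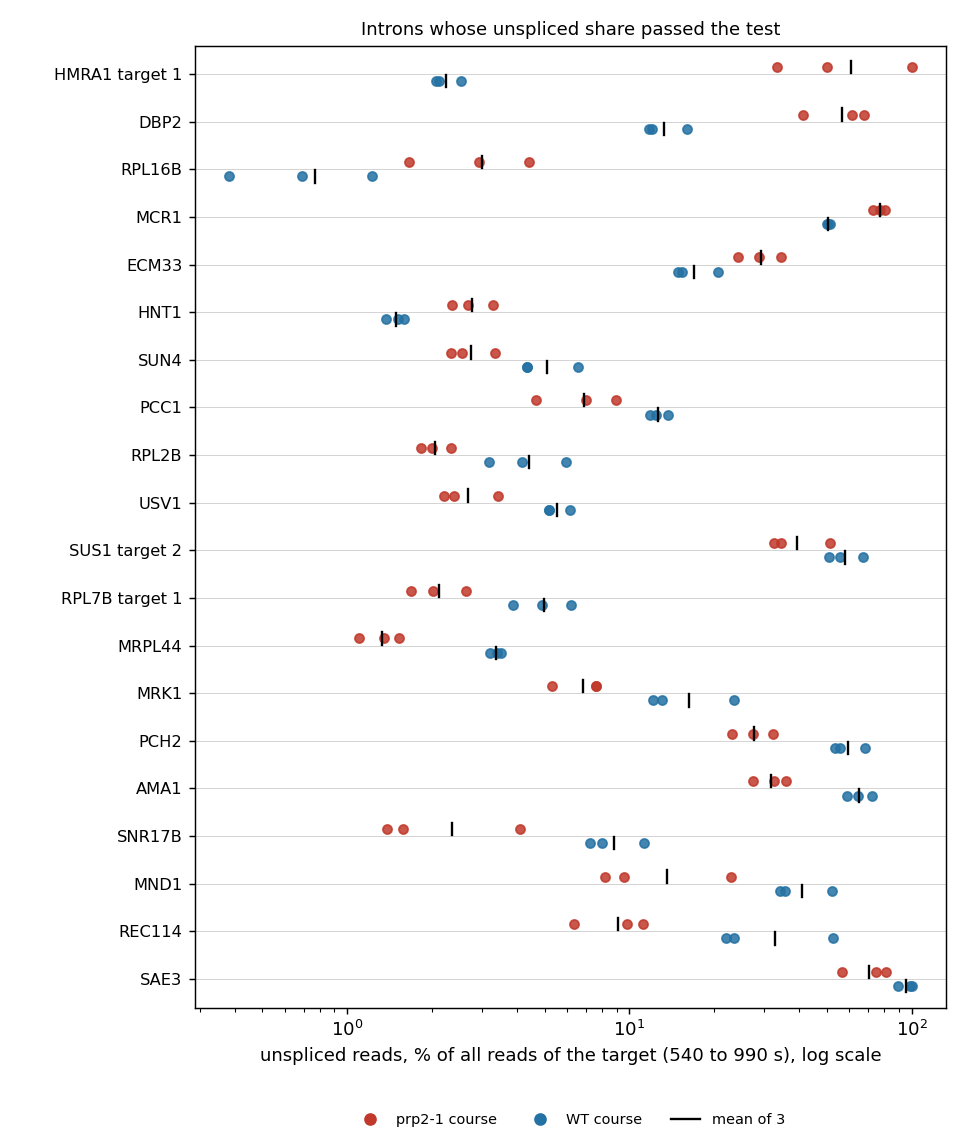
Unspliced reads as a percentage of all reads of the target, on a log axis, in each late time course (points, 3 prp2-1 and 3 WT courses; black ticks are means) for the 20 introns that passed the test. The prp2-1 courses lie below WT for REC114, MND1, AMA1 and PCH2 and above WT for DBP2, MCR1 and RPL16B.

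Several introns with well-studied regulation did not pass. ACT1, the actin gene, had 7.19% ± 1.07 unspliced in prp2-1 and 10.7% ± 2.06 in WT (SD, n = 3, change −0.62, edgeR adjusted p = 0.215), although its courses did not overlap. HAC1, whose intron is removed by Ire1 and not by the spliceosome, had 69.3% ± 2.1 in prp2-1 and 67.1% ± 1.91 in WT (change 0.15, adjusted p = 0.79). MTR2 had 87.3% ± 4.7 in prp2-1 and 87.8% ± 0.359 in WT (change −0.01, adjusted p = 0.985). GCR1, an activator of glycolytic genes, had 73.4% ± 3.28 in prp2-1 and 79.4% ± 3.66 in WT (change −0.49, adjusted p = 0.272). RPL30, which binds and represses its own transcript, had 3.14% ± 1.01 in prp2-1 and 3.66% ± 1.10 in WT (change −0.23, adjusted p = 0.735). The mRNA export factor YRA1 had a change of −0.12, and the alpha-tubulin genes TUB1 and TUB3 had changes of 0.29 and 0.50. In the RNA processing and export list DBP2 was the 1 call among 13 introns (median 0.13). None of the 12 cytoskeleton introns, 20 secretory introns or 10 ubiquitin and proteasome introns tested passed in either direction, with medians of 0.26, −0.23 and −0.17. In edgeR 3, 5 and 3 of these had an unadjusted p under 0.05, and DESeq2 also called none. With TMM factors within each read state 1 passed, UBC13, a ubiquitin-conjugating enzyme (change 0.75, adjusted p = 0.0343), named here after its value was seen.

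The lariat intermediate was then set against the other unspliced reads of the same intron. Of 240 introns tested, 19 (7.92%) had a lower lariat ratio in prp2-1 and 4 (1.67%) a higher one, with a median log2 change of −0.15. Courses of the strains did not overlap for 50 introns with prp2-1 lower (20.8%) and for 21 with prp2-1 higher (8.75%). The median intron had 16.4%, 16.7% and 19.1% of its unspliced reads as lariat intermediate in prp2-1 and 17.6%, 21.8% and 19.2% in WT (17.4% ± 1.48 in prp2-1 and 19.5% ± 2.13 in WT, SD, n = 3, exact permutation p = 0.2). Scaling by TMM within each read state moved the median change of all introns to 0.14 and gave 13 lower and 8 higher calls, so the split between directions depends on the scaling. Leaving out prp2-1 course 1, 2 or 3 left 8, 3 and 21 of the 23 calls, and leaving out WT course 1, 2 or 3 left 18, 1 and 5. MCR1 was the call that held in all 6 fits. Without the WT library of course 1 at 540 s there were 23 lower and 3 higher calls, and 21 of the 23 main calls remained.

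DBP2 and RPL16B, both with a higher unspliced ratio, were lower in the lariat ratio. In DBP2 the lariat intermediate made up 20.3%, 18.3% and 33.5% of unspliced reads in prp2-1, against 55.8%, 64.02% and 66.5% in WT (change −2.44, SE 0.36, edgeR adjusted p = 0.00384). The strains did not overlap, and the change was −2.32, −2.54 and −2.47 at 540, 720 and 990 s alone; the call was lost without WT course 2. As shares of all DBP2 reads, lariat intermediates were 12.9% ± 0.806 in prp2-1 and 8.26% ± 1.81 in WT, and the other unspliced reads were 44.0% ± 14.6 in prp2-1 and 5.01% ± 0.948 in WT. In RPL16B the lariat share of unspliced reads was 18.99%, 13.8% and 57.7% in prp2-1, against 59.2%, 81.4% and 77.7% in WT (change −3.001, SE 0.75, adjusted p = 0.0314), a call lost without prp2-1 course 1 or 2 or WT course 2 or 3. As shares of all RPL16B reads, lariat intermediates were 0.708% ± 0.216 in prp2-1 and 0.587% ± 0.389 in WT, and the other unspliced reads were 2.29% ± 1.55 in prp2-1 and 0.179% ± 0.0421 in WT.

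The opposite joint pattern was seen in MCR1, where both ratios were higher in prp2-1. Its lariat share of unspliced reads was 68.9%, 70.7% and 63.4% in prp2-1, against 29.2%, 23.2% and 22.04% in WT (change 2.68, SE 0.32, edgeR adjusted p = 0.00168), and 2.58, 2.84 and 2.54 at the single times. As shares of all MCR1 reads, lariat intermediates were 52.2% ± 5.43 in prp2-1 and 12.6% ± 1.79 in WT, while the other unspliced reads were 24.8% ± 1.71 in prp2-1 and 38.1% ± 2.38 in WT. Of the introns tested in both ways, 1 was higher in both, 2 were higher in the unspliced and lower in the lariat ratio, and 208 passed in neither.

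TUB3, whose unspliced share did not pass, was among the introns with a lower lariat ratio in prp2-1. TUB3 lariat intermediates made up 6.80%, 6.40% and 8.63% of unspliced reads in prp2-1, against 18.6%, 27.2% and 27.4% in WT, with no overlap (change −2.03, SE 0.29, edgeR adjusted p = 0.00384; the call was lost without WT course 2). The 3′ ends of these 3 introns, from 10 bases before the branch sequence on, are printed because a lariat intermediate cDNA stops at that branch point. They are from RefSeq, build R64, 5′ to 3′ on the coding strand, with the branch sequence TACTAAC and the last 3 bases in capitals.
DBP2, chrXIV:415855-415913, plus strand: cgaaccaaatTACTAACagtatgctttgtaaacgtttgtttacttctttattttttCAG
RPL16B, chrXIV:494525-494565, minus strand: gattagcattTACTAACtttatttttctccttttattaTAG
TUB3, chrXIII:23361-23515, minus strand: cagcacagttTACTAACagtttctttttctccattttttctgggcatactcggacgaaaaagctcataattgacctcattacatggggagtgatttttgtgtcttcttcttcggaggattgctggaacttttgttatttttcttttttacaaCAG
All 3 hold the exact TACTAAC. The DBP2 intron is 1002 nt long, that of RPL16B 449 nt and that of TUB3 298 nt. In TUB3 the branch sequence lies far from the 3′ splice site: 4 of the 258 introns, TUB3 included, have one as far away or farther. The distance is 139 nt in TUB3, 43 nt in DBP2 and 25 nt in RPL16B, beside a median of 34 nt. Over 206 introns, which are not independent, it was not ordered with the lariat change (Spearman's rho −0.06).

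Other introns with a lower lariat ratio in prp2-1 included actin-binding, translation and secretory genes. SAC6, the fimbrin of actin bundles, had 12.2%, 8.29% and 13.9% lariat among unspliced reads in prp2-1, against 28.1%, 35.6% and 42.7% in WT (change −2.16, SE 0.37, edgeR adjusted p = 0.00923). EFB1, a translation elongation factor subunit, had 8.68%, 13.4% and 18.02% in prp2-1, against 27%, 30.9% and 39.8% in WT (change −1.68, adjusted p = 0.0202). CMC4 had 7.63%, 7.68% and 13% in prp2-1, against 19.5%, 23.6% and 25.1% in WT (change −1.54, adjusted p = 0.0258). YPR063C had 62.8%, 62.0% and 70.6% in prp2-1, against 81.9%, 83.5% and 86.3% in WT (change −1.49, adjusted p = 0.0154). All prp2-1 courses lay below all WT courses in each, and none of these calls held without prp2-1 course 2 or WT course 2.

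Of the 20 secretory introns tested, 4 had a lower lariat ratio in prp2-1 and none a higher one, beside 7.92% lower over all introns (median −0.37, against −0.15 over all introns; 2 lower with TMM within read states). SEC27, a subunit of the COPI vesicle coat, had 22.9%, 32.6% and 30.6% lariat among unspliced reads in prp2-1, against 58.2%, 53.2% and 54.2% in WT (change −1.59, SE 0.31, edgeR adjusted p = 0.0154). SEC17, which helps take apart SNARE complexes, had 24.7%, 30.7% and 36.2% in prp2-1, against 46.8%, 53.2% and 64.7% in WT (change −1.51, adjusted p = 0.0293). The receptor for retrieval to the endoplasmic reticulum, ERD2, had 16.2% ± 5.15 in prp2-1 and 33.8% ± 9.45 in WT (adjusted p = 0.044), and the SNARE BET1 had 3.14% ± 0.849 in prp2-1 and 7.37% ± 0.273 in WT (adjusted p = 0.0393). BET1 did not pass in any fit with a course left out, nor without the WT library of course 1 at 540 s. SEC27 lost the call without prp2-1 course 2, WT course 2 or WT course 3. SEC17 and ERD2 lost it without prp2-1 course 1 or 2 or WT course 2 or 3.

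Ribosomal protein introns numbered 8 lower and 2 higher in lariat ratio among 93 tested (median −0.18), and 5 lower and 3 higher with TMM within read states; among the 147 others 11 were lower and 2 higher (median −0.15). RPL34B had 36.8%, 32.9% and 43.5% lariat among unspliced reads in prp2-1, against 60.3%, 63.1% and 62.3% in WT (change −1.45, edgeR adjusted p = 0.0202). Its paralog RPL34A had 0%, 0.975% and 2.79% in prp2-1, against 6.35%, 9.37% and 7.87% in WT (change −2.96, adjusted p = 0.0202), on 0, 5 and 5 lariat reads in prp2-1 and 24, 40 and 30 in WT. RPS29A had 2.17%, 1.47% and 1.82% in prp2-1, against 7.32%, 10.4% and 13.4% in WT (change −2.50, adjusted p = 0.0214), on 2, 1 and 1 lariat reads in prp2-1 and 9, 19 and 27 in WT. The minimum of 5 lariat reads was a mean over both strains. RPL34A and RPS29A met it only through WT, where their lariat share was higher, so the filter favoured this direction for them. RPS23A, RPL35A, RPS17A and RPL35B were also lower, with changes of −1.34, −1.33, −1.29 and −1.13, as was NOG2, a GTPase of ribosome assembly (−1.34).

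A higher lariat ratio in prp2-1 was called for 3 more introns. RPL32, a protein of the large ribosomal subunit, had 25.9%, 20.6% and 8.63% lariat among unspliced reads in prp2-1, against 7.29%, 6.11% and 2.50% in WT (change 2.02, SE 0.55, edgeR adjusted p = 0.0458). RPS11A had 65.1%, 56.2% and 42.2% in prp2-1, against 27.2%, 37.4% and 21.2% in WT (change 1.62, adjusted p = 0.0356). UBC4, a ubiquitin-conjugating enzyme, had 21.1%, 25.8% and 26.2% in prp2-1, against 15.3%, 13.4% and 11.8% in WT (change 1.04, adjusted p = 0.0458). The strains did not overlap in any of them; UBC4 passed in no fit with a course left out, RPS11A in 1 and RPL32 in 2. RPS11A also lost the call without the WT library of course 1 at 540 s (change 1.40, adjusted p = 0.0722). ACT1 had 35.4% ± 1.59 in prp2-1 and 35.9% ± 1.22 in WT (SD, n = 3, change −0.04, adjusted p = 0.967). YRA1, GCR1 and MTR2 had changes of −1.08, −0.64 and 0.48, and none passed.

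**Figure D3:**
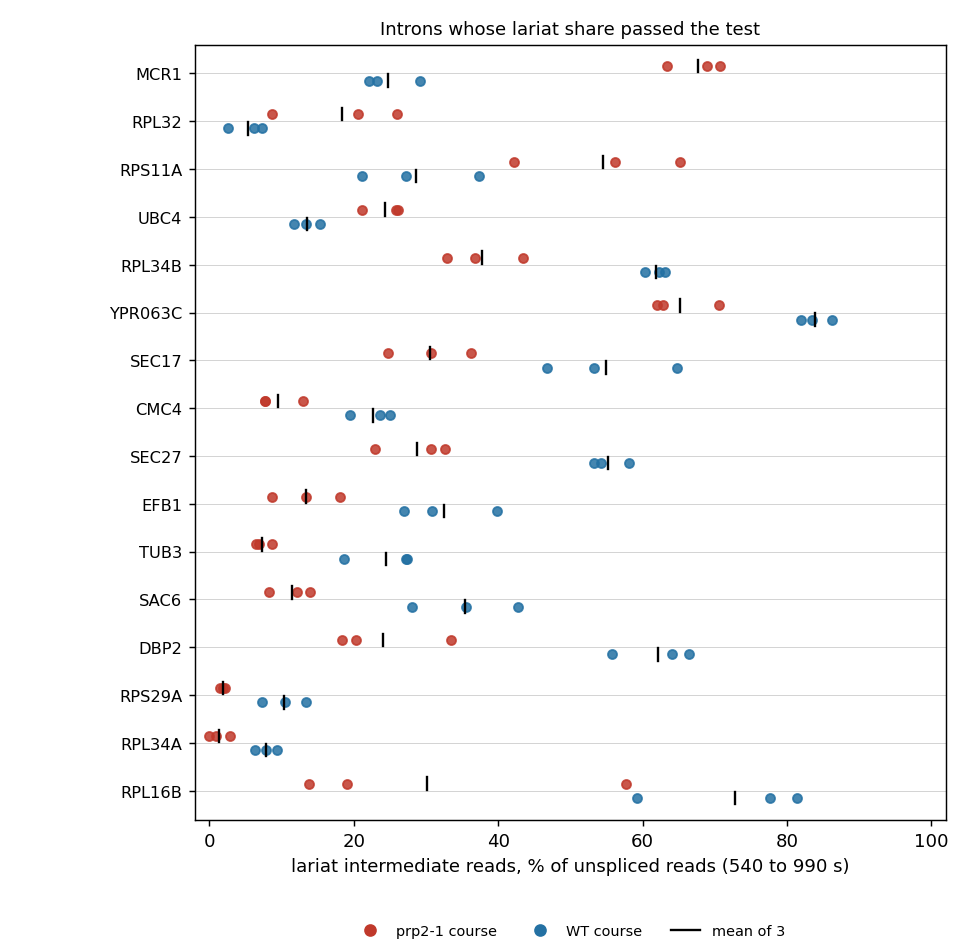
Lariat intermediate reads as a percentage of the unspliced reads of the same intron in each late time course (points, 3 prp2-1 and 3 WT courses; black ticks are means) for named introns that passed the test. The prp2-1 courses lie below WT for DBP2, TUB3, SAC6 and SEC27 and above WT for MCR1, RPL32, RPS11A and UBC4.

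Total reads per target, spliced and unspliced together, gave the mix of labelled RNA. They were tested with edgeR's quasi-likelihood test after TMM scaling and are given as TMM-scaled CPM, not scaled for length, so that only changes are set against each other. Of 282 targets tested, 95 (33.7%) were lower in prp2-1 and 111 (39.4%) higher, with a median log2 change of 0.19. Courses of the strains did not overlap for 99 targets with prp2-1 lower (35.1%) and for 113 with prp2-1 higher (40.1%). The split depends on the scaling: without TMM it was 58 lower and 149 higher (median 0.69), and with spike-in reads as the library size it was 277 lower and 1 higher (median −3.92). Of the 206 calls, 170 passed in all 6 fits with a course left out. Without the WT library of course 1 at 540 s there were 98 lower and 109 higher calls, and 204 of the 206 remained.

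Ribosomal protein targets were lower relative to the other targets. Of 104, 86 were lower and none higher in prp2-1 (median change −1.02); without TMM 53 were lower and 1 higher, and with the spike-ins as library size all 104 were lower. RPL30 had 3687, 3008 and 4260 CPM in prp2-1, against 14019, 10669 and 12325 in WT (change −1.76, SE 0.20, edgeR adjusted p = 0.000108). RPL16B had a change of −1.55 (adjusted p = 0.00297), and RPL17B, RPL40B, RPS18B, RPL7A target 2, RPS17B, RPL31B and RPL23A had changes of −1.70 to −1.57. Most of these have a close paralog, and how reads common to both were counted is not given in the sources used here. Of the 178 other targets, 9 were lower and 111 higher (median 0.72; with spike-ins as library size, 173 lower and 1 higher).

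Among the 9 other targets that were lower, HMRA1 target 1 had the largest change, on 8 reads over the prp2-1 courses and 8845 or more in each WT course. NOG2 averaged 206 ± 35.1 CPM in prp2-1 and 1084 ± 339 in WT (SD, n = 3, change −2.39, SE 0.26, edgeR adjusted p = 9.3e-05). DBP2 averaged 86.8 ± 14.2 in prp2-1 and 405 ± 186 in WT (change −2.22, SE 0.32, adjusted p = 0.000353), beside its higher unspliced share. SNR17A and SNR17B were lower by a narrow margin, with changes of −0.56 (adjusted p = 0.0489) and −0.68 (adjusted p = 0.0454), and each call held in 1 of the 6 fits with a course left out. Neither passed without TMM, where the changes were −0.07 (adjusted p = 0.809) and −0.18 (adjusted p = 0.57).

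Mitochondrial targets had the highest list median after the meiotic ones. Of 8, 7 were higher and none lower in prp2-1, with a median change of 2.17. Beside this, 39.4% of all targets and 111 of the 178 that are not ribosomal protein targets were higher. With spike-in reads as the library size all 8 were lower (median −1.93). QCR10, a subunit of respiratory complex III, averaged 421 ± 124 CPM in prp2-1 and 60.8 ± 2.9 in WT (change 2.79, edgeR adjusted p = 4.7e-05). MCR1 had 6306, 5787 and 3289 in prp2-1, against 713, 724 and 1031 in WT (change 2.64, SE 0.28, adjusted p = 9.3e-05). QCR9 of the same complex, MRPL44, the cytochrome c oxidase subunits COX5B and COX4, and TMH18 had changes of 2.46, 2.39, 1.93, 1.91 and 1.66. RIM1, the mitochondrial single-stranded DNA binding protein, did not pass (change −0.20, adjusted p = 0.554). OM14, a protein of the mitochondrial outer membrane outside the list, had 47882, 51152 and 36750 CPM in prp2-1, against 4267, 3437 and 7321 in WT (change 3.18, SE 0.31, edgeR adjusted p = 5.39e-05), and CMC4 had a change of 3.44. CMC4 is also outside the list, and both were named for the size of their change.

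Single targets changed more. USV1 had 6970, 6824 and 3140 CPM in prp2-1, against 127, 100 and 127 in WT (change 5.58, SE 0.35, edgeR adjusted p = 6.16e-06). MRK1 had 67.5, 119 and 78.0 in prp2-1, against 3.44, 4.14 and 8.61 in WT (change 4.04, SE 0.43, adjusted p = 9.17e-05). MRK1 met the minimum of 100 total reads, a mean over both strains, only through prp2-1, where it was high. RRT8, named for a screen on ribosomal DNA transcription, averaged 995 ± 237 in prp2-1 and 87.5 ± 9.37 in WT (change 3.51, adjusted p = 6.16e-06). HAC1 had 7443, 2397 and 2770 in prp2-1, against 973, 628 and 411 in WT (change 2.65, SE 0.47, adjusted p = 0.00109). For all of these, the prp2-1 courses lay above the WT courses. In bulk RNA, more cells with a transcript and more of it per cell cannot be told apart.

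After TMM scaling, higher totals were also called for 14 of 22 secretory, 7 of 10 ubiquitin and proteasome, 9 of 12 cytoskeleton and 5 of 6 phosphatase, kinase activator and 14-3-3 targets, with medians of 0.60, 0.98, 0.73 and 0.68, beside 111 of 282 over all targets and 111 of the 178 that are not ribosomal protein targets. Without TMM the counts were 22 of 22, 9 of 10, 9 of 12 and 6 of 6 higher, with DESeq2 9, 6, 7 and 3, and with spike-in reads as the library size every target of these 4 lists was lower. Among the cytoskeleton targets, the actin-binding proteins YSC84, SAC6 and LSB3 had changes of 2.53, 2.38 and 1.41, and ACT1 had 7301, 6222 and 8874 CPM in prp2-1, against 3465, 3001 and 4487 in WT (change 1.03, SE 0.22, edgeR adjusted p = 0.00215). CIN2, a tubulin folding factor, was the 1 lower (−1.22), and TUB3 had a change of −0.05. PAL2, an endocytosis protein, had a change of 2.62. Of the self-regulated list, 5 of 7 were lower and none higher (median −1.07). Its members RPL22B, RPL30, RPS14B, RPS9A and RPS9B are also ribosomal protein targets, of which 86 of 104 were lower. The count is therefore not separate from theirs. Of 14 introns with a lower unspliced ratio, 8 had a higher total, 2 a lower total and 4 did not pass. Of the 6 with a higher unspliced ratio, 3 had a higher and 3 a lower total; over all targets tested, 39.4% were higher and 33.7% lower.

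**Figure D4:**
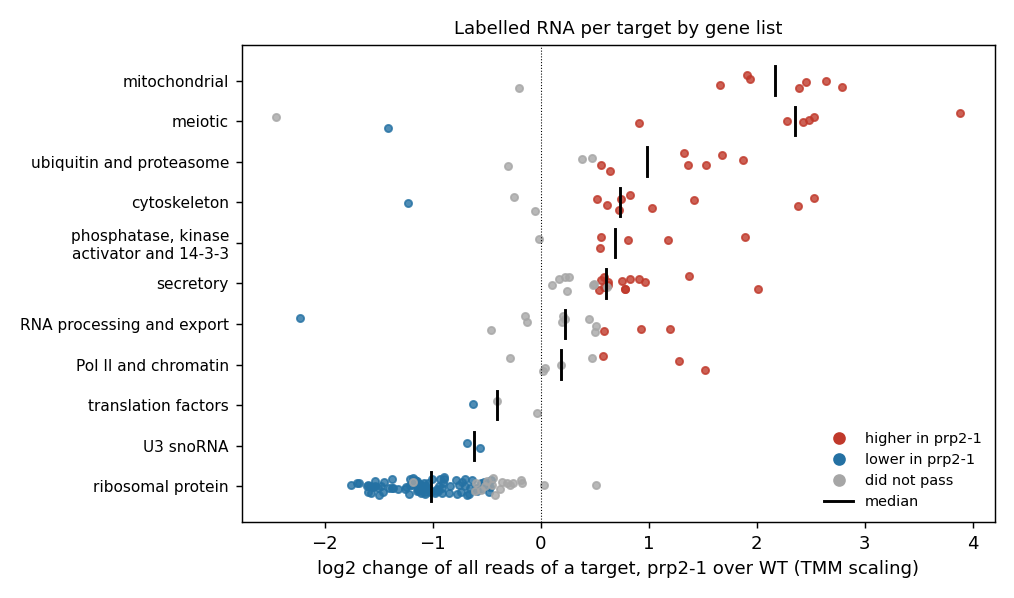
Log2 change in total reads, prp2-1 over WT after TMM scaling, for the targets of 11 gene lists (points, coloured by call; black lines are list medians). Ribosomal protein targets have a median of −1.02 and mitochondrial targets one of 2.17 on this scale, against −5.11 and −1.93 with spike-in reads as the library size; HMRA1 target 1 lies off the axis and is not drawn, but it is counted in the median of its list.

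Labelled RNA per spike-in read was far lower in prp2-1. Over the late times prp2-1 courses 1, 2 and 3 had 115, 183 and 154 target reads per spike-in read, against 3800, 4303 and 2868 in WT (151 ± 34.0 in prp2-1 and 3657 ± 728 in WT, SD, n = 3, exact permutation p = 0.1). The ratio was also lower at 0 s, where prp2-1 had 0.933 to 1.92 and WT 41.4 to 67.2 target reads per spike-in read. Per the labels' protocols, fixed quantities of total RNA and of labelled spike-in RNA were mixed, but the labels do not say that these were the same for both strains, and its part in the difference was not tested. With spike-in reads as the library size, USV1 was the 1 target called higher in prp2-1 (log2 change 1.49, edgeR adjusted p = 0.000154), MRK1 had a change of 0.09 (adjusted p = 0.822), and REC114 had one of −0.19.

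**Figure D5:**
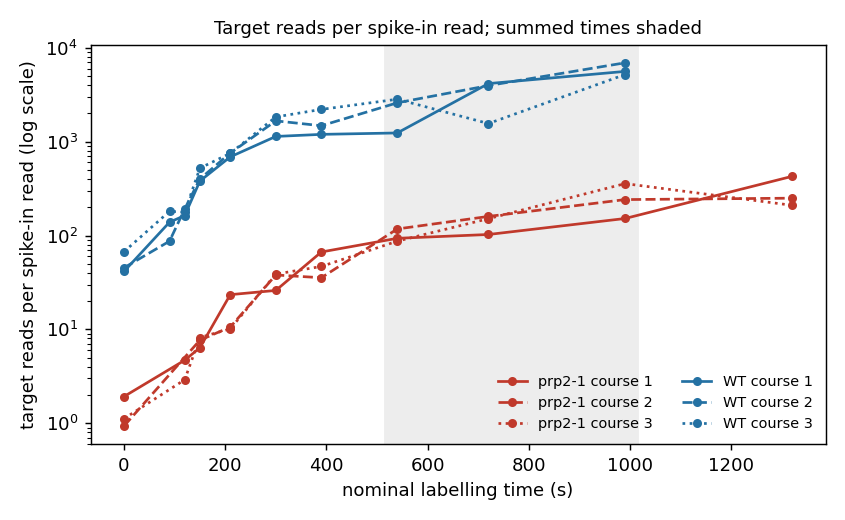
Reads of the yeast targets per spike-in read (log axis) against nominal labelling time in s for each time course of prp2-1 and WT; the summed times are shaded. The prp2-1 courses run from 0.933 to 1.92 at 0 s to 87.1 to 357 at the late times, and the WT courses from 41.4 to 67.2 to 1238 to 6919.

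The change of the median intron between 540 and 990 s overlapped between the strains. The median lariat share moved by −3.78 ± 6.23 percentage points in prp2-1 and by 3.45 ± 3.81 in WT (SD, n = 3, exact permutation p = 0.2), and the median unspliced share by −1.15 ± 0.0938 points in prp2-1 and by −2.001 ± 1.51 in WT (exact permutation p = 0.4).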

How the data were processed

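Labelled RNA was pulled down through biotin, and introns were read by multiplexed primer extension sequencing, per the labels' protocols. Per the submitters' processing notes, the aligner was STAR 2.7.2b and the genome build R64; how reads were assigned to targets and classes is not given in the sources used here. The deposited tables used are raw counts of total, unspliced, lariat intermediate and branch-to-3′-splice-site reads per target. A deposited normalised table of unspliced counts, a signal by the authors, served only to check the column numbers. Background at 0 s was not subtracted. The deposited counts do not show whether copies of the same molecule were merged, so read numbers may overstate precision.

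Reads were summed per course over 540, 720 and 990 s. In edgeR 4.0.16 (R 4.3.3) the 2 read states of a course were fitted as 2 columns with a term per course and the course total as library size; totals used TMM. Minimum means were 20 unspliced and 100 total reads, 20 unspliced and 5 lariat reads, and 100 total reads. Adjusted p-values are Benjamini-Hochberg over all features tested, called under 0.05. Single values were compared by exact two-sided permutation tests. Each fit was tested on simulated data with a fixed dispersion and with changes larger than many of those called here. That test does not give error rates for the calls. Alternatives used DESeq2 1.42.0 and limma 3.58.1. Intron sequences came from RefSeq: 258 of 308 targets matched a single annotated intron.

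Most genes were named by a rule: up to 12 per direction by size among calls with non-overlapping courses, up to 4 per list, and a fixed set that includes ACT1, DBP2, HAC1 and TUB3. Some were named outside it, among them SUN4, APE2, further list members, and RPS23A, RPL35A, RPS17A, RPL35B and NOG2 for the lariat ratio. The comparison, the members and the 13 gene lists were chosen with earlier results of these data known, and the alternative that leaves out the 540 s library of WT course 1 was chosen after seeing the data. Deviations from the strain means were correlated between courses of the same number. Values were 0.33, 0.12 and 0.19 in unspliced ratios, 0.52, 0.36 and 0.14 in totals, and 0.29, −0.07 and 0.29 in lariat ratios. Courses of unlike number ranged widely. For prp2-1 course 3 with WT course 2 the values were 0.24 (unspliced) and 0.23 (totals), and for prp2-1 course 1 with WT course 2 they were −0.41 and −0.51. Deviations from a mean of 3 are tied to each other, so these values do not establish pairs, and the main fits used none.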

Additional observations from a re-analysis of the deposited data

How the results depend on the processing

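Main counts were 14 lower and 6 higher (unspliced), 19 and 4 (lariat), and 95 and 111 (total). Lower unspliced calls numbered 22 with DESeq2, 6 with the minimums raised 5 times, 6 with prp2-1 replicate 1 alone, 7 with columns read by their own number, and 3, 2 and 0 at 540, 720 and 990 s alone; higher ones numbered 14 with the columns' own number and 2 and 1 at 540 and 990 s. At single times, lower lariat calls numbered 0, 3 and 7 and higher ones 0 and 1 at 540 and 990 s; higher lariat calls numbered 1 with limma, 8 with TMM within states and 8 with the replicate block. Totals gave 58 lower without TMM, 277 lower and 1 higher on spike-in reads, and 59 higher at 540 s. Where edgeR called 0, the count at an unadjusted p under 0.05 was 21 (unspliced lower, 990 s), 8 and 12 (lariat lower and higher, 540 s) and 32 (lariat lower, without WT course 2). The cause of these moves was not tested.

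With the replicate block, unspliced calls were 20 lower and 6 higher, total calls 100 and 116, and lariat calls 28 and 8. Leaving out 1 course gave 6 to 28 lower and 4 to 8 higher unspliced calls, 0 to 30 and 1 to 3 lariat calls, and 81 to 95 and 98 to 114 total calls. Differences of prp2-1 minus WT then ranged from −0.83 to −0.28 points in median unspliced share, −3.06 to −0.95 points in median lariat share, −3901 to −3183 in reads per spike-in read, and −0.24 to −0.00029 in ribosomal protein minus other introns.

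Reversed values: median unspliced share 0.28 with the columns' own number, median lariat share 2.08 at 540 s, ribosomal protein minus other introns 0.22 at 990 s and 0.0717 without branch-to-3′-splice-site reads, and RPL34B lariat ratio 0.0932 at 540 s. On spike-in reads, totals reversed for REC114 (−0.19), RRT8 (−0.58), CMC4 (−0.60), OM14 (−0.83), QCR10 (−1.30), HAC1 (−1.65), MCR1 (−1.43), PAL2 (−1.47), AMA1 (−1.50), YSC84 (−1.56), ACT1 (−3.05) and GCR1 (−4.04).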
